A study of Mus musculus with 24 samples.

Results

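The miR-99/100 and miR-125 microRNAs are 5 probes, mmu-miR-99a, mmu-miR-99b, mmu-miR-100, mmu-miR-125a-5p and mmu-miR-125b-5p, among 566 mouse miRNA probes and 626 features of a NanoString nCounter panel, which counts barcoded probes without amplification. They were taken by name, as the partners of let-7 in the miR-99/let-7/miR-125 gene clusters, with earlier results of these data known. RNA came from exosomes, vesicles shed by cells, in the serum of male C57BL/6N mice aged 40 weeks with no genetic change named. The 24 samples form 4 groups of 6. WD+CCl4 mice, labelled HCC (liver cancer), had a western diet, made up of high-fat food and water sweetened with fructose at 23.1 g/L plus glucose at 18.9 g/L, and weekly carbon tetrachloride (CCl4), a liver toxin, into the abdomen. ND+CCl4 mice, labelled cirrhosis, had normal chow, tap water and the same toxin. WD+oil mice, labelled NASH (fatty liver with inflammation), had the western diet and corn oil, the vehicle. ND+oil mice, labelled normal, had chow and corn oil. The labels do not say that samples came from separate animals, so a p-value here covers the spread among samples only, which may be technical, and fewer vesicles of a source and less RNA per vesicle cannot be told apart.

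A microRNA guides repression of messenger RNAs through its seed, here bases 2 to 8 of the mature strand, so miRNAs that share a seed can share targets. The miR-99/100 seed family is known from human cells for repressing the growth kinase mTOR. The miR-125 family is the vertebrate counterpart of lin-4, the developmental timing miRNA of the worm, and in mice miR-125a and miR-125b are known for acting in blood stem cells. Members of both families sit beside a let-7 gene in the genome, and let-7 is a family of differentiation-linked miRNAs.

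All 5 of 5 members were matched in the RefSeq miRNA table (build GRCm38.p6). Their mature sequences are shown because the seed splits the 5 members into 2 families and the remaining bases show how alike the probes' targets are. Capitals mark the seed.
miR-99a: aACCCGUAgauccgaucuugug
miR-99b: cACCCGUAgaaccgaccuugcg
miR-100: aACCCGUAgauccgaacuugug
miR-125a-5p: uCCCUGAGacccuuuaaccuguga
miR-125b-5p: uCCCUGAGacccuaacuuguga
With positions counted from the 5′ end, miR-100 becomes miR-99a by the single substitution A16U, and miR-99a becomes miR-99b by 4 substitutions, A1C, U11A, U16C and U21C, all outside the seed. miR-125a-5p and miR-125b-5p share their first 13 bases and are 24 and 22 bases long. Whether the probes of such close sequences cross-hybridise was not tested.

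The members lie in 3 clusters. On chromosome 16, plus strand, the mature bases of miR-99a (chr16:77598940-77598961), let-7c and one copy of miR-125b-5p (chr16:77646279-77646300) span 47361 bases. On chromosome 17, plus strand, those of miR-99b (chr17:17830194-17830215), let-7e and miR-125a-5p (chr17:17830817-17830840) span 647 bases. On chromosome 9, plus strand, miR-100 (chr9:41531437-41531458) and the other copy of miR-125b-5p (chr9:41581940-41581961) span 50525 bases; let-7a-2 belongs to this cluster and is named only. Both copies give the same mature miR-125b-5p, so its probe cannot tell chromosome 9 from chromosome 16. Mature let-7c likewise has a copy of the same sequence on chromosome 15, outside the clusters, and its probe cannot tell the copies apart. Mature let-7a also has a gene outside the clusters, on chromosome 13. The let-7 partners printed next share 1 seed with each other and none with the members.
let-7c: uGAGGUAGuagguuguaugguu
let-7e: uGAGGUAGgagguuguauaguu

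Values are scaled digital counts as deposited. A probe was called above the limit in a library where its recovered count was over the 8 negative control probes' mean by more than 2 SD. Totals ran from 42478 to 1496838 miRNA counts per library (median 207120), and 69 to 213 of the 566 probes lay above the limit. Median totals were 254312 for replicates 4 to 6, against 69551 for replicates 1 to 3. No label ties either set to a batch. By group, totals ran from 139911 to 1328933 in WD+CCl4, 46576 to 1496838 in ND+CCl4, 48664 to 265265 in WD+oil and 42478 to 204535 in ND+oil. In scaled units the limit ran from 16.8 to 86.9 in WD+CCl4 and from 44.8 to 199 in ND+oil. Within either replicate set, every WD+CCl4 total lay above every ND+oil total, and every WD+CCl4 scaled limit lay below every ND+oil limit. Replicate 1 of WD+CCl4 and replicate 1 of ND+CCl4 stood apart at 22.3 and 23.7 on the first principal component (44.2% of the variance), where no other library passed 6.84. The main miR-99a differences that rest on them are given with and without both. Ratios of probes are given with both included. Summed hepatocyte miRNAs (miR-122, miR-192, miR-194, miR-148a and miR-802, 4 of 5 above the limit in enough samples to be tested) ran from 4954 to 109839 in WD+CCl4, 2919 to 132186 in ND+CCl4, 7761 to 22419.9 in WD+oil and 1215 to 2222 in ND+oil. Summed myeloid miRNAs (miR-223, miR-142-3p and miR-142-5p, 3 of 3 tested) ran from 2231 to 25722 in WD+CCl4, 2323 to 22756 in ND+CCl4, 8334 to 20402 in WD+oil and 20511 to 29795 in ND+oil.

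Detection differed between members. miR-125b-5p was above the limit in 24 of 24 libraries, miR-125a-5p in 23, miR-99a in 15, miR-100 in 1 and miR-99b in 0. The first 3 passed the filter of 6 libraries above the limit and were tested among 158 miRNAs, and miR-99b and miR-100 were not. miR-99a was above the limit in 12 of 12 libraries of replicates 4 to 6, against 3 of 12 of replicates 1 to 3.

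**Figure D1:**
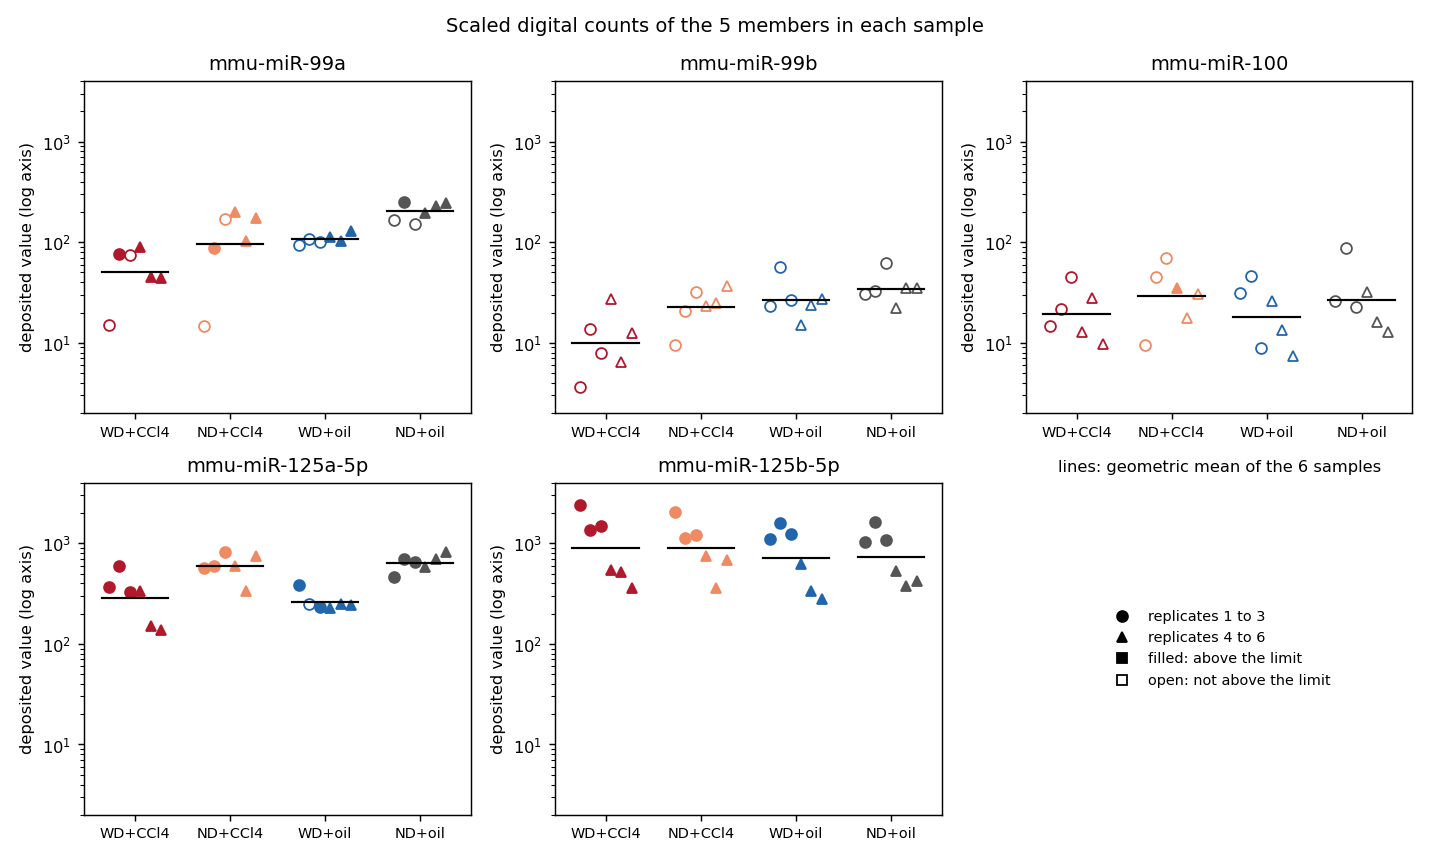
Deposited scaled digital counts (log axis) of the 5 members in each of the 24 samples, by group; circles are replicates 1 to 3, triangles replicates 4 to 6, open symbols lie at or below the negative control limit, and lines are geometric means of 6 samples. miR-99a is lower in all 6 WD+CCl4 samples than in any ND+oil sample, where 10.1% of the 158 tested miRNAs did not overlap. miR-125a-5p separates the western diet with oil from chow with oil, where 15.8% did not overlap. miR-125b-5p separates the replicate sets rather than the groups.

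miR-99a was lower in WD+CCl4 than in ND+oil serum. Its values in WD+CCl4 replicates 1 to 6 were 15.1, 76.6, 75.1, 89.0, 44.8 and 44.2. ND+CCl4 samples had 14.7, 87.9, 170.0, 197, 104 and 173. WD+oil samples had 93.6, 109, 101, 113, 103 and 131, and ND+oil samples 165, 251, 152, 196, 231 and 245. Every WD+CCl4 value lay below every WD+oil and every ND+oil value, every WD+oil value lay below every ND+oil value, and ND+CCl4 spread across the other groups. The mean log2 values were 5.67 ± 0.92 in WD+CCl4, 6.61 ± 1.37 in ND+CCl4, 6.77 ± 0.16 in WD+oil and 7.67 ± 0.30 in ND+oil (SD, n = 6 each).

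In the fit, miR-99a fell in WD+CCl4 against ND+oil, with a log2 difference of -2.00 (SE 0.47, 95% interval -2.97 to -1.03), 0.250 of the ND+oil level, and limma adjusted p = 0.0083. It was lower in 6 of 6 samples. This comparison called 15.8% of the 158 miRNAs, 10.1% as lower, and in 10.1% the 2 groups did not overlap. The other differences were of about 1 log2 unit and missed the threshold. WD+oil lay at -0.91 against ND+oil (SE 0.47, 95% interval -1.88 to 0.06, adjusted p = 0.204), although the groups did not overlap, as in 15.8% of miRNAs in that comparison. This SE is shared by all 4 groups, whose SDs ran from 0.16 in WD+oil to 1.37 in ND+CCl4. With only WD+oil and ND+oil fitted, miR-99a passed. ND+CCl4 lay at -1.06 against ND+oil (SE 0.47, adjusted p = 0.189), with 6 of 6 samples below the ND+oil mean, and at -0.53 without ND+CCl4 replicate 1 (adjusted p = 0.542). WD+CCl4 lay at -1.09 against WD+oil (adjusted p = 0.887), again with no overlap, as in 1.27% of miRNAs, in a comparison where limma called 0% (8 miRNAs at an unadjusted p under 0.05, 0 by edgeR and 0 by DESeq2). It lay at -0.94 in WD+CCl4 against ND+CCl4 (adjusted p = 0.418). The average effects were -0.92 for diet (SE 0.33, adjusted p = 0.0507) and -1.08 for CCl4 (SE 0.33, adjusted p = 0.0781), and the interaction was -0.03 (95% interval -1.40 to 1.34, adjusted p = 0.984), in a test that called 0% of miRNAs by limma (6 at an unadjusted p under 0.05, 0 by edgeR and 2 by DESeq2). Scaled by the spike-in probes instead, which put the median of all miRNAs at 1.27 in WD+CCl4 against ND+oil, miR-99a lay at -0.55 there (adjusted p = 0.594), and its CCl4 effect turned to 0.29.

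The 2 libraries that stand apart held the 2 lowest miR-99a values of all 24. Without both, the WD+CCl4 to ND+oil difference was -1.66 (adjusted p = 4.67e-05). The miR-99a differences then also passed in WD+oil against ND+oil (-0.91, adjusted p = 0.00637), in WD+CCl4 against ND+CCl4 (-1.13, adjusted p = 0.0139) and by diet on average (-1.02, adjusted p = 0.0002). Neither library is a WD+oil or ND+oil sample, so the -0.91 itself did not move. Only the spread shared by the groups and the adjustment changed there. Without both, ND+CCl4 lay at -0.53 against ND+oil (adjusted p = 0.282) and the average CCl4 effect was -0.65 (adjusted p = 0.0907), neither past the threshold. A replicate block, for which the pairing check is given with the processing, also brought the diet effect past the threshold (-0.92, adjusted p = 0.0138). The CCl4 effect of -1.08 passed with that block (adjusted p = 0.0135), although the numbers were not shown to pair samples across injections, with a term for the replicate set (adjusted p = 0.0337) and with the haemolysis index, miR-451 over miR-23a, as a covariate (-1.18, adjusted p = 0.0395). Every library of replicates 4 to 6 was above the limit, and in these alone WD+CCl4 lay at -1.97 against ND+oil (adjusted p = 0.000808). The same difference in replicates 1 to 3 alone was -2.02 (adjusted p = 0.226).

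Background moved with these values. The limit, in scaled units, ran from 163 to 277 in WD+oil replicates 1 to 3, above their miR-99a values of 93.6 to 109, and from 38.7 to 50.8 in WD+oil replicates 4 to 6, below their values of 103 to 131. After the mean of the negative controls was subtracted, WD+CCl4 samples had 8.68, 50.3, 39.3, 74.5, 27.8 and 32.4. ND+CCl4 samples then had 7.30, 62.2, 71.7, 184, 88.7 and 149. WD+oil samples had 27.3, 9.29, 40.8, 93.4, 84.9 and 110.5, and ND+oil samples 106, 186, 71.0, 170.1, 213 and 219.9. WD+CCl4 and ND+oil then overlapped by 1 sample each, at 74.5 and 71.0, and WD+CCl4 overlapped WD+oil widely. The subtracted difference between WD+CCl4 and ND+oil was -2.16 (adjusted p = 0.0373). For replicates 4 to 6 alone it was -2.27 (adjusted p = 0.00182). Subtraction moved WD+oil against ND+oil to -1.68 (adjusted p = 0.107) and WD+CCl4 against WD+oil to -0.49 (adjusted p = 0.796). With subtraction and without both libraries that stand apart, miR-99a in WD+oil against ND+oil still passed (adjusted p = 0.018), and in WD+CCl4 against ND+CCl4 it did not (-1.25, adjusted p = 0.358).

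**Figure D2:**
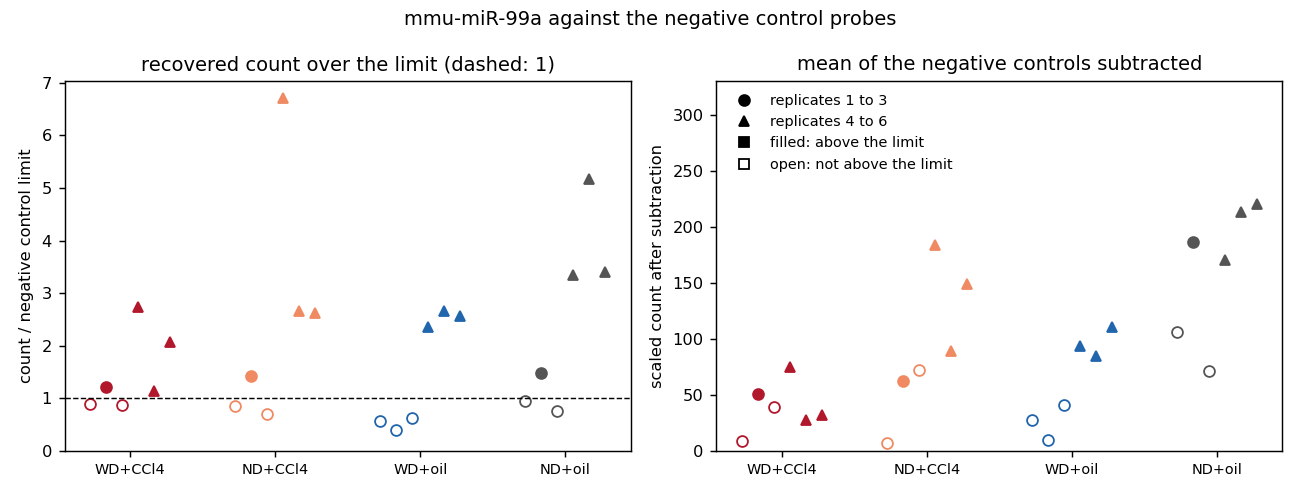
miR-99a against the negative controls in each sample: on the left its recovered count divided by the limit (dashed line at 1), on the right its scaled count after subtraction of the mean negative control. Circles are replicates 1 to 3 and triangles replicates 4 to 6; all 12 triangles lie above the limit, against 3 of 12 circles, and the WD+CCl4 triangles (27.8 to 74.5) stay below those of ND+oil (170.1 to 219.9) after subtraction.

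miR-99b, from the chromosome 17 cluster, had counts of 4 to 50 and values of 3.65 to 61.9, and no library was above the limit. Its WD+CCl4 values ran from 3.65 to 27.0, its ND+CCl4 values from 9.53 to 36.4, its WD+oil values from 15.0 to 57.2 and its ND+oil values from 22.3 to 61.9. In a fit with no filter, its difference of -1.70 between WD+CCl4 and ND+oil passed (adjusted p = 0.0382), but both groups lay below the limit in every library. miR-100, from the chromosome 9 cluster, was above the limit in ND+CCl4 replicate 4 alone, with 74 counts. Its values ran from 9.63 to 45.5 in WD+CCl4, 9.53 to 69.1 in ND+CCl4, 7.47 to 45.7 in WD+oil and 12.8 to 87.2 in ND+oil, which overlap throughout. No difference between groups is read from these 2 members.

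miR-125a-5p was lower in both western diet groups than in ND+oil. Its values in WD+CCl4 replicates 1 to 6 were 371, 599, 326, 338, 151 and 138. ND+CCl4 samples had 563, 601, 818, 599.8, 335 and 751. WD+oil samples had 382, 252, 234, 228, 248 and 243, and ND+oil samples 465, 692, 653, 585, 690.2 and 815. All WD+oil values lay below all ND+oil values, in a comparison where the groups did not overlap in 15.8% of miRNAs. WD+CCl4 replicate 2 reached into the ND+oil range, and ND+CCl4 overlapped ND+oil. The mean log2 values were 8.15 ± 0.81 in WD+CCl4, 9.20 ± 0.45 in ND+CCl4, 8.03 ± 0.28 in WD+oil and 9.33 ± 0.27 in ND+oil (SD, n = 6 each).

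Against ND+oil, miR-125a-5p fell in WD+oil by 1.30 on the log2 scale (SE 0.31, 95% interval -1.95 to -0.65, limma adjusted p = 0.0106), to 0.407 of the ND+oil level, lower in 6 of 6 samples. That comparison called 10.8% of miRNAs, 5.7% as lower. In WD+CCl4 against ND+oil it fell by 1.18 (SE 0.31, adjusted p = 0.0188), with 6 of 6 samples below the ND+oil mean. With no filter the 2 differences had adjusted p = 0.052 in WD+oil and 0.0745 in WD+CCl4, and with spike-in scaling neither passed: WD+oil lay at -1.19 (adjusted p = 0.888) and WD+CCl4 turned to 0.27 (adjusted p = 0.806), below the median of 1.27. The WD+CCl4 call was also lost without WD+CCl4 replicate 6 (-0.97, adjusted p = 0.0518) or without ND+oil replicate 6 (-1.11, adjusted p = 0.0546). Averaged over both injections, the diet effect was -1.18 (SE 0.22, 95% interval -1.63 to -0.72, adjusted p = 0.00138), 0.442 of the chow level. The diet comparison called 20.3% of miRNAs, 12% as lower.

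On the deposited scaling no CCl4 difference in miR-125a-5p passed. ND+CCl4 lay at -0.12 against ND+oil (95% interval -0.77 to 0.53, adjusted p = 0.816), in a comparison that called 1.27% of miRNAs. WD+CCl4 lay at 0.12 against WD+oil (95% interval -0.52 to 0.77, adjusted p = 0.984). The average CCl4 effect was 0.00031 (95% interval -0.46 to 0.46, adjusted p = 0.999), but 1.37 with spike-in scaling, which passed (adjusted p = 0.0459) where the median of all miRNAs lay at 1.30, and the interaction 0.24 (SE 0.44, adjusted p = 0.926). WD+CCl4 lay at -1.06 against ND+CCl4 (SE 0.31, adjusted p = 0.132), with 5 of 6 samples below the ND+CCl4 mean, in a comparison that called 0.633%. That difference passed without ND+CCl4 replicate 1 (-1.07, adjusted p = 0.0496), without WD+CCl4 replicate 2 (-1.27, adjusted p = 0.0143) and without both libraries that stand apart (-1.15, adjusted p = 0.0428).

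The size of the diet difference in miR-125a-5p was not the same in the 2 sets of replicates. The average diet effect was -0.86 for replicates 1 to 3, and -1.50 for replicates 4 to 6. For WD+CCl4 against ND+oil the first set gave -0.51 and the other -1.84, and for WD+oil against ND+oil -1.07 and -1.52. The difference between the sets in these effects was not tested. In WD+oil replicate 2 its value of 252 was under that library's limit of 277. The hepatocyte sum was higher and the myeloid sum lower in every WD+oil sample than in every ND+oil sample (7761 to 22419.9 against 1215 to 2222, and 8334 to 20402 against 20511 to 29795), and their part in the fall of miR-125a-5p was not tested.

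**Figure D3:**
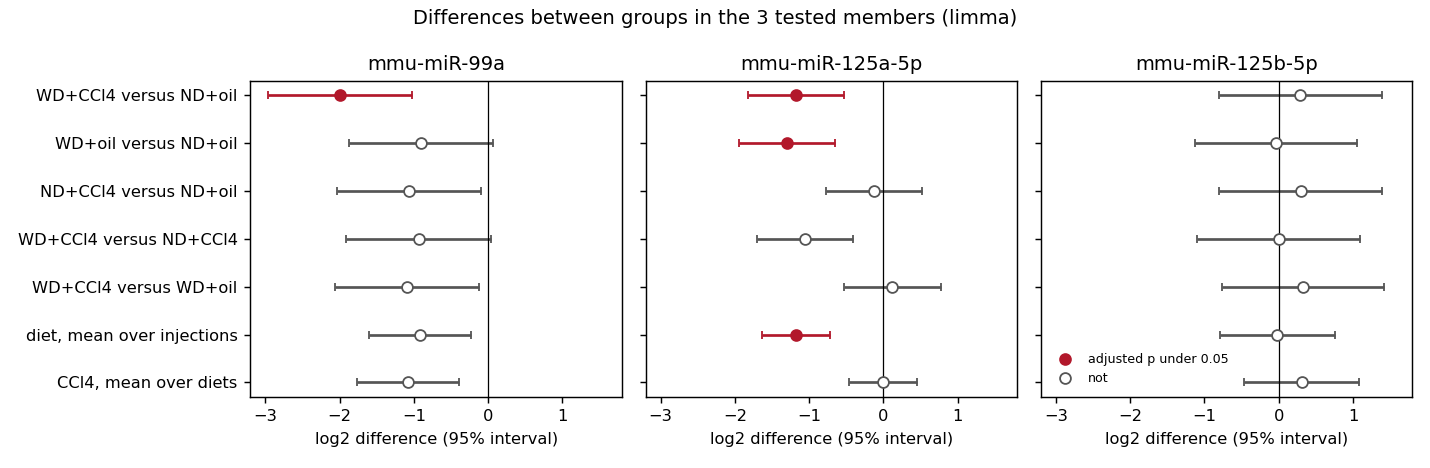
Log2 differences with 95% intervals from limma for the 3 tested members in 7 comparisons; filled red points have adjusted p under 0.05. miR-99a passes in WD+CCl4 against ND+oil (-2.00), miR-125a-5p in WD+CCl4 against ND+oil (-1.18), in WD+oil against ND+oil (-1.30) and in the average diet effect (-1.18), and miR-125b-5p in none.

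miR-125b-5p shares the seed of miR-125a-5p, and none of its comparisons passed on the deposited scaling. Its values in WD+CCl4 replicates 1 to 6 were 2399.7, 1365, 1499, 548, 519 and 363. ND+CCl4 samples had 2070.4, 1128, 1206, 746, 355 and 685. WD+oil samples had 1115, 1595, 1239.7, 625, 337 and 278, and ND+oil samples 1026, 1629.8, 1075, 532, 375 and 419. The 4 groups covered one another's ranges, and in each the first 3 values were the high ones.

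The mean log2 values of miR-125b-5p were 9.80 ± 1.07 in WD+CCl4, 9.81 ± 0.87 in ND+CCl4, 9.48 ± 1.04 in WD+oil and 9.51 ± 0.86 in ND+oil (SD, n = 6 each). The average diet effect was -0.02 (SE 0.38, 95% interval -0.79 to 0.75, adjusted p = 0.978) and the average CCl4 effect 0.31 (SE 0.38, 95% interval -0.46 to 1.08, adjusted p = 0.647). With spike-in scaling the CCl4 effect was 1.68 and passed (adjusted p = 0.0326), with the median of all miRNAs at 1.30. By limma 0% of the 158 miRNAs passed in the average CCl4 effect (34 at an unadjusted p under 0.05), against 19 by edgeR and 20 by DESeq2. The intervals of the 5 pairwise differences ran about 1 log2 unit to either side of values between -0.04 and 0.33, in a fit that left the replicate sets together.

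Replicates 4 to 6 held less miR-125b-5p than replicates 1 to 3. Across all groups it ran from 278 to 746 in replicates 4 to 6 and from 1026 to 2399.7 in replicates 1 to 3, with no overlap. Within groups the difference was -1.60 (SE 0.19, adjusted p = 2.45e-06), 3.02-fold lower in replicates 4 to 6. It had the smallest p of the 158 miRNAs, of which 36.1% differed between the sets and 20.3% were lower in replicates 4 to 6. The replicate sets were compared because the libraries' totals differed between them. miR-125a-5p lay at -0.36 between the sets (SE 0.21, adjusted p = 0.176) and miR-99a at 0.52 (SE 0.32, adjusted p = 0.190), neither past the threshold. With the set as a term in the fit, no group difference of miR-125b-5p passed, with a CCl4 effect of 0.31 (adjusted p = 0.274).

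The let-7 partners are listed beside the members that share their clusters. let-7c, with a copy between miR-99a and miR-125b-5p, lay at -0.44 in WD+CCl4 against ND+oil (SE 0.44, limma adjusted p = 0.4996). Its average diet effect was -0.79 (SE 0.31, limma adjusted p = 0.0805). let-7e, between miR-99b and miR-125a-5p, fell in WD+CCl4 against ND+oil (-1.33, SE 0.43, adjusted p = 0.0418), and was above the limit in 11 of 24 libraries. let-7a was listed at 5.72 or less in 14 libraries, all 12 of replicates 1 to 3 and replicate 4 of WD+oil and of ND+oil. The recovered count was 1, except in replicate 1 of WD+CCl4 and of ND+CCl4. There let-7a was listed at 1, so its count of at most 2 cannot be recovered. In the other 10 libraries it ran from 63.5 to 1035.

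Of the let-7 probes and miR-98, 9 were tested. Against ND+oil, 9 of 9 were lower in sign in WD+CCl4 (58.9% of all 158) and 3 were called (10.1% of all called lower), with a median of -1.31 beside -0.17 over all 158 miRNAs. In WD+oil 9 of 9 were lower in sign (57.6% of all) and 1 was called (5.7% of all), with a median of -0.87 beside -0.14. In the average diet effect 9 of 9 were lower in sign (53.2% of all) and 4 were called (12% of all), with a median of -0.83 beside -0.05. These comparisons share samples, and the list has no test.

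In a ratio of a pair of probes of the same library the scaling factor cancels, apart from the pseudocount of 1. The 8 ratios chosen between cluster partners gave 40 exact two-sided permutation tests over samples, and 0 passed after Benjamini-Hochberg adjustment. Of these, 20 held miR-99b or miR-100, which were near background, and a single ratio at the smallest possible p would have had an adjusted p of 0.0866. Taken as same-numbered pairs across diets, 0 of 16 exact sign-flip tests passed (smallest p possible 0.0312, lowest adjusted p = 0.143). Most of the 16 would have had to reach that smallest p together for any to pass, and several held miR-99b or miR-100. These tests therefore could not decide on a single ratio. The ratio of miR-99a to miR-125b-5p was lower in 6 of 6 pairs in WD+oil against ND+oil and in 6 of 6 in WD+CCl4 against ND+CCl4. The log2 ratio of miR-99a to let-7c was -2.67 ± 0.53 in WD+CCl4, -2.54 ± 1.28 in ND+CCl4, -1.23 ± 0.65 in WD+oil and -1.11 ± 0.57 in ND+oil (SD, n = 6). Both probes were above the limit in 15 of 24 libraries, and background does not cancel in a ratio. The WD+CCl4 and ND+oil ratios did not overlap and differed by -1.56 (exact permutation p = 0.00216, adjusted p = 0.0866). That p is the smallest that 6 against 6 can give. WD+CCl4 differed from WD+oil by -1.44 (exact permutation p = 0.00433, adjusted p = 0.0866). The ratio of miR-99a to miR-125b-5p differed by -2.29 between WD+CCl4 and ND+oil (exact permutation p = 0.00866, adjusted p = 0.0866). With 1 library left out at a time this difference ran from -2.59 to -1.67. The ratio of miR-125a-5p to let-7e lay 1.08 higher in ND+CCl4 than in ND+oil (exact permutation p = 0.013, adjusted p = 0.104), with let-7e above the limit in 11 libraries. Leaving out 1 library at a time gave 0.71 to 1.26 there.

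The ratio of miR-125a-5p to miR-125b-5p, which share a seed, was added after their values were seen and has no test. Its log2 value was -1.66 ± 0.72 in WD+CCl4, -0.60 ± 0.72 in ND+CCl4, -1.45 ± 0.996 in WD+oil and -0.19 ± 0.98 in ND+oil (SD, n = 6). It ran from -2.69 to -0.70 in WD+CCl4, from -1.88 to 0.13 in ND+CCl4, from -2.66 to -0.20 in WD+oil and from -1.23 to 0.96 in ND+oil. The groups overlapped, and the western diet groups had the lower means at either injection. Between same-numbered samples it was lower in 6 of 6 pairs in WD+CCl4 against ND+CCl4 (differences of -1.69 to -0.28) and in 6 of 6 in WD+oil against ND+oil (differences of -1.68 to -0.40).

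**Figure D4:**
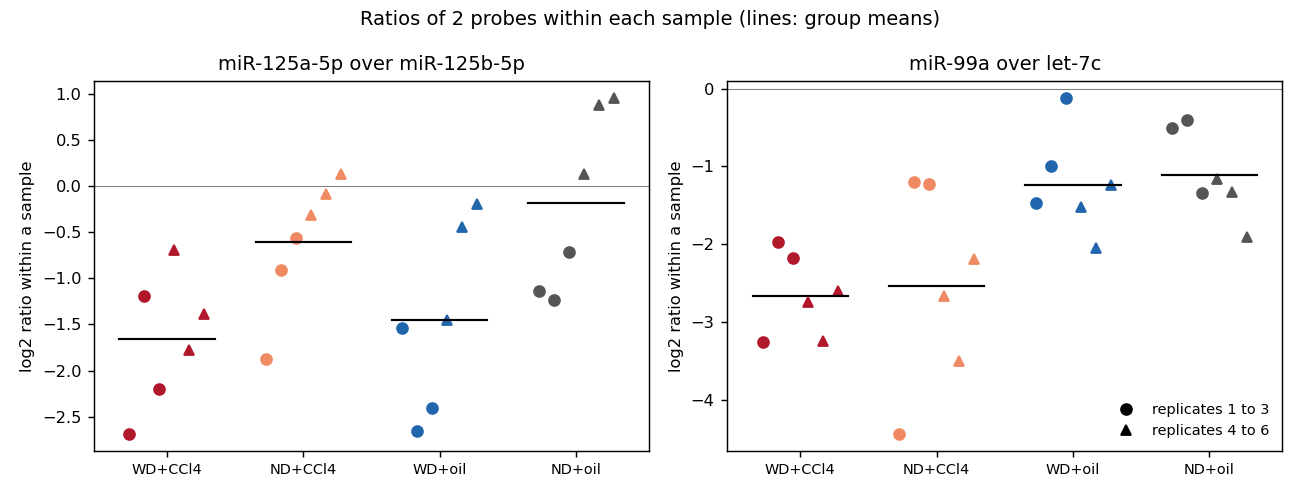
Log2 ratios of miR-125a-5p to miR-125b-5p (left) and of miR-99a to let-7c (right) in each sample by group, with lines at group means; circles are replicates 1 to 3 and triangles replicates 4 to 6. The left ratio has lower means in WD+CCl4 (-1.66) and WD+oil (-1.45) than in ND+CCl4 (-0.60) and ND+oil (-0.19). The right ratio is lower in all 6 WD+CCl4 samples than in all 6 ND+oil samples, with both of its probes above the limit in 15 of 24 libraries.

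The miRNAs most like each tested member were taken as the 3 with the highest Pearson r of log2 values over 24 libraries, which share scaling and the 2 libraries that stand apart. For miR-99a they were let-7d (r = 0.913, and 0.762 over the 22 libraries without both), miR-15b (0.903 and 0.763) and let-7i (0.896 and 0.761). For miR-125a-5p they were let-7b (0.679 and 0.712), miR-151-5p (0.675 and 0.836) and miR-340-5p (0.553 and 0.605). For miR-125b-5p they were miR-466g (0.753 and 0.699), miR-30c (0.718 and 0.671) and miR-706 (0.710 and 0.629). Over the 22 libraries other miRNAs ranked above most of these. In the order named, the ranks were then 5, 4 and 6 for miR-99a, 2, 1 and 10 for miR-125a-5p, and 7, 8 and 12 for miR-125b-5p. Within groups, with group means removed over all 24 libraries, r was 0.886 to 0.921 for the 3 of miR-99a and 0.725 to 0.840 for those of miR-125b-5p. It was 0.228, 0.325 and 0.0439 for let-7b, miR-151-5p and miR-340-5p with miR-125a-5p. These values keep both libraries that stand apart and the difference between the replicate sets. Among the members, miR-99a and miR-125a-5p had r = 0.429, or 0.769 without both libraries, and 0.187 within groups over all 24. miR-125a-5p and miR-125b-5p, of 1 seed, had r = 0.279 (0.291 without), and miR-99a and miR-125b-5p, of 1 cluster, had -0.367 (0.0345 without).

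Other panel probes tied to the family were near background. miR-351, which carries the miR-125 seed, was above the limit in 0 of 24 libraries, as were miR-670 and miR-10b. miR-10a, an evolutionary relative of miR-99 and miR-100 with a different seed, was above it in 9 libraries, and none of its comparisons passed (WD+CCl4 against ND+oil -0.45, SE 0.51, adjusted p = 0.548).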

How the data were processed

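Per the labels, a miRNeasy micro kit gave the RNA of serum exosomes, which was read on the NanoString mouse miRNA panel. The deposited table holds signal values, digital counts that the authors multiplied by 1 factor per library (0.397 to 5.72, read from the values). The scaling software is not given in the sources used here. Division by it returned whole numbers in 14571 of 14571 values over 1 (100%, within 0.05 counts), and 117 values were listed at 1. Limits of 31.0 to 71.2 counts set the precision.

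Differences come from limma 3.58.1 (R 4.3.3) on log2(deposited value + 1), fitted to all 24 samples as 4 group means with an intensity trend, two-sided, with Benjamini-Hochberg adjustment over the 158 miRNAs above the limit in at least 6 samples and a threshold of 0.05; the pseudocount of 1 shrinks the fold changes of low values. Alternatives were DESeq2 1.42.0 and edgeR 4.0.16 on the recovered counts, other scalings, filters, covariates and left-out libraries. The fits were tested on simulated data. The members, the lists and the tests were chosen with earlier results of these data known. Named are the members, their let-7 partners, opposite arms and relatives, and for each tested member the 3 most alike miRNAs.

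Same-numbered samples correlated above 0.1 in their deviations in 6 of 6 pairs for WD+oil with ND+oil (0.323 to 0.747) and for WD+CCl4 with ND+CCl4 (0.280 to 0.844). Numbers were therefore taken to pair samples across diets. Elsewhere 3 to 5 of 6 correlated above 0.1. The same number was the best match for 4 of 6 samples in both diet comparisons, and for 0 to 3 elsewhere. Same-numbered samples also share a replicate set, so this check cannot tell pairs from sets, and the labels name no shared source.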

Additional observations from a re-analysis of the deposited data

Results flagged for a closer look

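Among 20 sets of 6 samples (5 members in 4 groups), 2 held a sample far from the others; chance gives about 1 in 20 groups. Gaps and ranges were taken on log2 values. miR-99a was lowest in ND+CCl4 replicate 1, at a deposited value of 14.7, with a gap of 0.684 of the group's log2 range to the next sample. This is one of the 2 libraries that stand apart. miR-125a-5p was highest in WD+oil replicate 1, at a deposited value of 382, with a gap of 0.809 of the log2 range.

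The opposite arms of the miR-125 hairpins entered only the fit with no filter, where none of their differences passed. miR-125a-3p had 37 counts and miR-125b-3p 38 counts in WD+CCl4 replicate 1, both just over that library's negative control limit of 36.8 counts, and neither was above the limit in any other library.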

How the results depend on the processing

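Counts of called members are over the 3 tested. In WD+oil against ND+oil the count of 1 became 0 with no filter (miR-125a-5p adjusted p = 0.052), with detection required in all samples, with spike-in scaling and in replicates 1 to 3, and 2 with only those groups fitted, without both libraries that stand apart, and with background subtracted without both. In WD+CCl4 against ND+oil the count of 2 became 0 with detection in all samples, spike-in scaling and replicates 1 to 3, and with no filter miR-125a-5p missed (adjusted p = 0.0745). In WD+CCl4 against ND+CCl4 the count of 0 became 1 by DESeq2 and with the haemolysis index (miR-451 over miR-23a), and 2 without both libraries (unsubtracted) and in replicates 4 to 6 (subtracted or not). The diet count of 1 became 2 with a pseudocount of 10, edgeR, DESeq2, the replicate block, the set term, without both libraries and in replicates 4 to 6, subtracted or not in both cases, and 0 with detection in all samples, spike-in scaling and replicates 1 to 3. The CCl4 count of 0 became 2 with spike-in scaling, and 1 (miR-99a) with the replicate block, the set term and the haemolysis index. With the replicate block, miR-99a had adjusted p = 0.0821 in WD+oil against ND+oil and 0.0135 for CCl4, and it changed no call beyond miR-99a for diet and CCl4.

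Requiring detection in all samples removes miR-99a and miR-125a-5p by construction. Under spike-in scaling, which moved the median WD+CCl4 to ND+oil difference of all miRNAs to 1.27 (deposited scaling -0.17), miR-125a-5p reversed to 0.27 (adjusted p = 0.806) and miR-99a lay at -0.55 (adjusted p = 0.594) in that comparison; for CCl4 miR-99a lay at 0.29, miR-125a-5p at 1.37 and miR-125b-5p at 1.68. The cause was not tested. Of all 158 miRNAs, edgeR and DESeq2 called 10 and 30 in WD+oil against ND+oil (limma 17), 12 and 19 in ND+CCl4 (limma 2), 39 and 47 in WD+CCl4 against ND+oil (limma 25), and 3 and 13 in WD+CCl4 against ND+CCl4 (limma 1). Calls split 9 higher and 16 lower in WD+CCl4 against ND+oil, 9 and 6 with each sample centred on its median and 9 and 0 with spike-in scaling; in WD+oil they split 8 and 9, then 8 and 4, then 1 and 0. Leaving out each library in turn gave counts of 1 to 1 in WD+oil against ND+oil, 1 to 2 in WD+CCl4 against ND+oil, 0 to 2 in WD+CCl4 against ND+CCl4, 1 to 2 for diet, 0 to 1 for CCl4, 0 to 0 in the other 3 comparisons, and 0 to 2 ratios; the ratios as pairs gave 0. The diet call of miR-99a was gained without ND+CCl4 replicate 1 or WD+CCl4 replicate 2, 3 or 4, and its CCl4 call without ND+CCl4 replicate 3. The replicate-set alternatives, the paired ratios and the subtractions combined with them were chosen after seeing the data. miR-99b, miR-100 and, in replicates 1 to 3, miR-99a lay near the negative controls, also in the 2 libraries with the highest totals.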
